A study of Mus musculus with 12 samples.

Results

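Myeloid granule genes were followed in blood-forming cluster cells of the mouse embryo. The set holds 9 genes, Mpo, Elane, Prtn3, Ctsg, Ms4a3, S100a8, S100a9, Gzmb and Srgn, taken by symbol out of 24138 gene models, and all 9 were found in each table used. RNA was sequenced from SSEA-1-CD31+CD117+ cells sorted from the aorta-gonad-mesonephros region, where clusters of emerging blood stem and progenitor cells adhere to the aortic wall. The embryos were C57BL/6 mice with a Fucci cell cycle reporter. The 12 samples formed 4 groups of 3: E11.5 cells in S/G2/M, E11.5 cells in G1, E10.5 cells in S/G2/M and E10.5 cells in G1, where E10.5 and E11.5 are days of gestation. The S/G2/M cells came from Fucci Green animals and were taken as mAG+, and the G1 cells came from Fucci Red animals and were taken as mKO2+, so cell cycle phase and reporter strain cannot be told apart. The labels do not say whether the embryos of a sample were pooled.

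Primary (azurophil) granules are the first granules that a developing neutrophil makes, and their proteins are transcribed at the promyelocyte stage or before it, when the cell still divides. They hold myeloperoxidase and the serine proteases neutrophil elastase, proteinase 3 and cathepsin G, packed on the proteoglycan serglycin, while secondary and tertiary granule proteins and the S100a8 and S100a9 proteins accumulate in later, more mature cells. Transcription factors known to act on the primary granule genes include PU.1, Myb, Runx1 and C/EBP family members.

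Levels are FPKM, sequenced fragments scaled to transcript length and library size, and the deposited tables give 1 value for each group. No spread between the 3 samples of a group could be computed, and read depth is unknown. The number of gene models above 0 was 15544 in E11.5 S/G2/M, 15838 in E11.5 G1, 15872 in E10.5 S/G2/M and 15852 in E10.5 G1. Cells of all groups carried RNA of the genes behind the sort: at E11.5, Kit (CD117) stood at 28.9 FPKM in S/G2/M and 16.9 FPKM in G1, and Pecam1 (CD31) at 69.9 and 111 FPKM. At E10.5, Kit stood at 12.7 FPKM in S/G2/M and 15.1 FPKM in G1, and Pecam1 at 30.2 and 39.8 FPKM. The same group had slightly different values in its 2 tables, by at most 4.33% for the 9 genes. The words rose and fell are used of genes with q under 0.05 according to the authors' deposited table. Every group entered 2 of the 4 comparisons, so the comparisons are not independent of each other. In bulk RNA, more cells of a type and more RNA per cell cannot be told apart.

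Mpo encodes myeloperoxidase, the peroxidase that makes hypochlorous acid, and it was the most abundant of the 9 genes in every group. Mpo stood at 341 FPKM in E11.5 S/G2/M cells, 93.7 FPKM in E11.5 G1 cells, 41.6 FPKM in E10.5 S/G2/M cells and 14.5 FPKM in E10.5 G1 cells. It ranked 223 among the 15544 models above 0 in E11.5 S/G2/M and 4565 among the 15852 in E10.5 G1. Both E11.5 groups were above both E10.5 groups, and at each age the S/G2/M group was the higher one.

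At E11.5, Mpo was 3.64-fold higher in S/G2/M than in G1 (log2 fold change 1.86, q = 0.0102 in the authors' deposited table). At E10.5 the log2 fold change between S/G2/M and G1 was 1.52 and did not pass (p = 0.00075, q = 0.0893 in the authors' deposited table). Whether the difference between phases was larger at E11.5 than at E10.5 was not tested, since no values of single samples were at hand. Between ages, Mpo rose in both phases. In S/G2/M it reached 352 FPKM at E11.5, against 41.0 FPKM at E10.5, and was 8.59-fold higher (log2 fold change 3.10, q = 0.00308 in the authors' deposited table). In G1 it reached 94.8 FPKM at E11.5, against 13.9 FPKM at E10.5, a 6.83-fold difference (log2 fold change 2.77, q = 0.00273 in the authors' deposited table). Fold changes were ranked over tested genes above 0 in both groups, with at least 5 FPKM in the higher one. Genes listed at 0 in a group were thus left out. Mpo had rank 64 from the top of 8865 between ages in S/G2/M and rank 179 of 9232 in G1. Between phases it had rank 71 of 8853 at E11.5 and rank 101 of 8853 at E10.5.

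**Figure D1:**
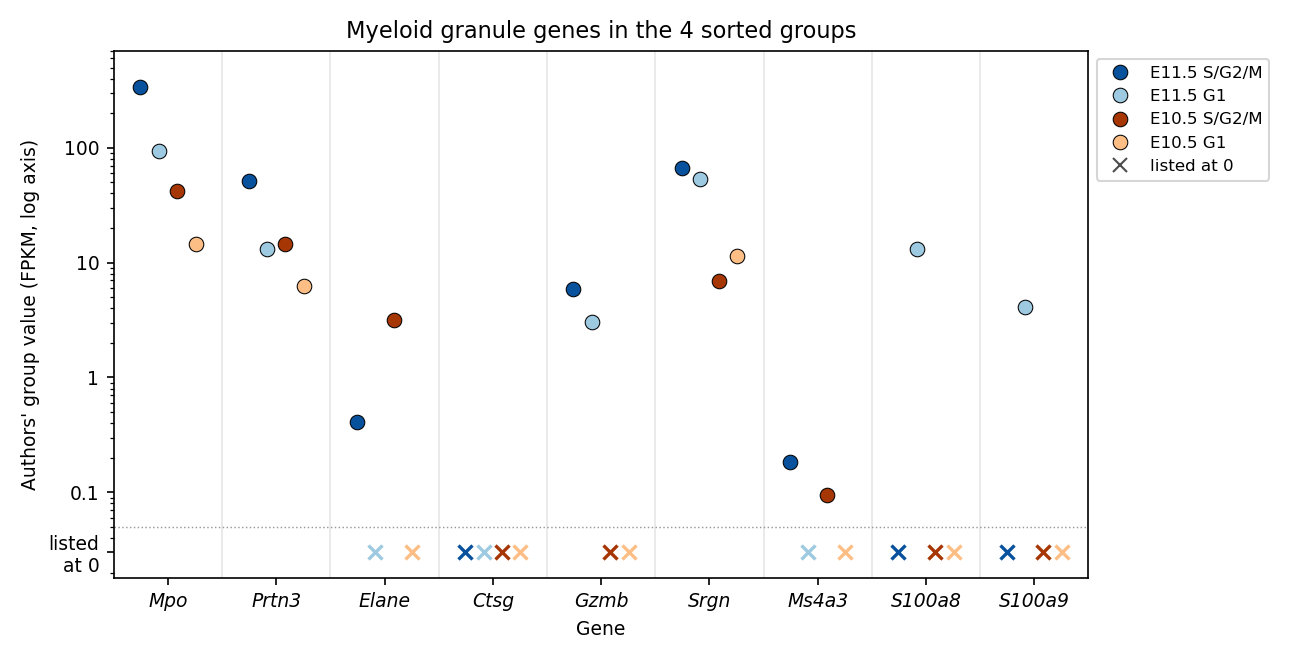
Group values (y axis, FPKM on a log scale, with crosses in the strip below for values listed at 0) of the 9 myeloid granule genes in E11.5 S/G2/M, E11.5 G1, E10.5 S/G2/M and E10.5 G1 cells, 1 value for each group of 3 samples with no error. Mpo runs from 341 FPKM in E11.5 S/G2/M cells to 14.5 FPKM in E10.5 G1 cells, while S100a8 and S100a9 stand above 0 in E11.5 G1 alone.

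Over the 9 genes, the authors' test reached 6 in the comparison of phases at E11.5, where 1 rose (Mpo) and 1 fell (S100a8), beside a background of 0.701% of 12414 tested genes called (0.137% rose and 0.564% fell). At E10.5 it reached 4, none of which passed at q under 0.05 and 1 of which (Mpo) had p under 0.05, beside a background of 0.655% of 12984 tested genes called (0.193% rose and 0.462% fell). In the comparison of ages in G1, 3 of 6 tested members rose (Mpo, Gzmb and S100a8), beside 4.45% of 12953 genes called (3% rose and 1.45% fell). In the comparison of ages in S/G2/M, 3 of 5 tested members rose (Mpo, Gzmb and Srgn), beside 4.07% of 12768 genes called (2.14% rose and 1.93% fell). A member was tested only where it had enough reads in at least 1 of the 2 groups, so these shares cover the detected members and not all 9. A gene listed at 0 in 1 of the 2 groups could be called in 1 direction only. This held for Gzmb in both comparisons of ages and for S100a8 wherever it was tested. The members were also chosen with earlier results of these data known, so the shares do not measure enrichment over the background.

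Prtn3, which encodes proteinase 3, a serine protease of the same granules, had the same order of groups by phase as Mpo. Prtn3 stood at 51.8 FPKM in E11.5 S/G2/M cells, 13.2 FPKM in E11.5 G1 cells, 14.6 FPKM in E10.5 S/G2/M cells and 6.22 FPKM in E10.5 G1 cells. The E11.5 S/G2/M group stood above the other 3, and the 2 middle groups were close. None of its differences passed the authors' test. The log2 fold change of S/G2/M over G1 was 1.97 at E11.5 (q = 0.877) and 1.23 at E10.5 (q = 0.978 in the authors' deposited table). The log2 fold change of E11.5 over E10.5 was 1.91 in S/G2/M (q = 0.797) and 1.16 in G1 (q = 0.848 in the authors' deposited table).

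Elane, which encodes neutrophil elastase, was close to the lower end of the scale. Elane stood at 0.406 FPKM in E11.5 S/G2/M cells and 3.14 FPKM in E10.5 S/G2/M cells, and was listed at 0 in both G1 groups. The log2 fold change of E11.5 over E10.5 in S/G2/M was -2.90, opposite in sign to Mpo and Prtn3, and did not pass (q = 0.852 in the authors' deposited table). With a pseudocount of 1 FPKM it was -1.54. At E10.5, Elane in S/G2/M against G1 had p = 0.1035 and q = 0.870 in the authors' deposited table.

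Prtn3 and Elane are neighbours with 3072 bases between them in GENCODE's GRCm38 annotation, Prtn3 at chr10:79874476-79883174 and Elane at chr10:79886247-79888215, both on the plus strand. In the deposited tables both carry 1 locus, chr10:79697305-80369637 (mm10), which spans 672333 bases and holds 49 gene models. Of these models, 34 to 36 were tested in each comparison and 0 were called in any, with 0 at p under 0.05 in the 2 comparisons of phases and in the comparison of ages in G1, and 1 (Pcsk4, p = 0.0367 in the authors' deposited table) in the comparison of ages in S/G2/M. Where it was finite, the largest test statistic of any of them was 0.290 in size, while that of Mpo at E10.5, with a q-value above 0.05, was 2.20 in the authors' deposited table.

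At E11.5 the phases gave 15 other tested genes with a fold change at least as large as that of Prtn3 and a level at least as high. Of these, 12 were called and 14 had p under 0.05, and the smallest test statistic among them was 1.44 in size, against 0.194 for Prtn3 in the authors' deposited table. Of such genes in the other comparisons, those called were 37 of 182 between phases at E10.5, 405 of 831 between ages in G1 and 33 of 47 between ages in S/G2/M. The smallest test statistics among them were 0.0765, 0.1002 and 0.0849 in size in those 3 comparisons, so single genes away from the locus also combined a large fold change with a small statistic. The q-values of Prtn3 and Elane therefore stand on a locus whose tested genes had small test statistics throughout, and the part of the shared locus in them was not tested. This comparison was chosen after the values were seen.

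**Figure D2:**
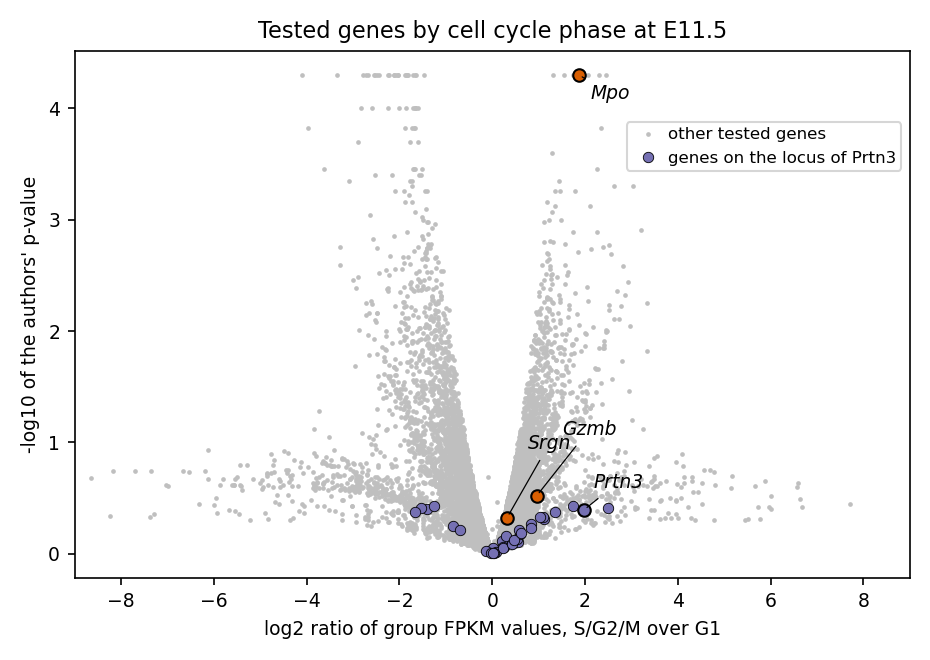
Log2 ratio of group FPKM values, S/G2/M over G1 at E11.5 (x axis), against -log10 of the authors' p-value (y axis) for tested genes above 0 in both groups, with the genes on the locus of Prtn3 marked. Prtn3 has a log2 ratio of 1.97 and p = 0.404 in the authors' deposited table, where Mpo with 1.86 has p = 5e-05.

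The upstream sequences of Mpo and the 3 neutrophil serine proteases are printed because these 4 genes encode the classical proteins of the primary granule. Their levels did not share 1 pattern, since Elane was highest in E10.5 S/G2/M and Ctsg was listed at 0. Each window covers the 250 bases before the start of the gene in RefSeq's GRCm38.p6 annotation, read 5′ to 3′ on the gene's strand. Capitals mark matches to any of 5 short words, searched on both strands and chosen after the sequences were read: AGGAAGT (PU.1 and other ETS factors), AACGG (Myb), TTNNGNAA (C/EBP), TGTGGT (Runx) and TATAA (TATA box). The Mpo window is chr11:87793534-87793783 (plus strand), that of Prtn3 chr10:79879417-79879666 (plus) and that of Elane chr10:79886062-79886311 (plus). The Ctsg window is chr14:56102575-56102824 (minus).
Mpo: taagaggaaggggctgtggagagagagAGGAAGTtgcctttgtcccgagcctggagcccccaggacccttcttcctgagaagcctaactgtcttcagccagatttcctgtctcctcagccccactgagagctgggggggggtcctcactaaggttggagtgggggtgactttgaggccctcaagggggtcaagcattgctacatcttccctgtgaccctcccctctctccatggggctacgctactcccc
Prtn3: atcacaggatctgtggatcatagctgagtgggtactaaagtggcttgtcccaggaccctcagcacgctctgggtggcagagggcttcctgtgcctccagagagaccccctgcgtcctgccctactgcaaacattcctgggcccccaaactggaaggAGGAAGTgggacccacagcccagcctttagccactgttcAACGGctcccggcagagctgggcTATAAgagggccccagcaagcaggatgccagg
Elane: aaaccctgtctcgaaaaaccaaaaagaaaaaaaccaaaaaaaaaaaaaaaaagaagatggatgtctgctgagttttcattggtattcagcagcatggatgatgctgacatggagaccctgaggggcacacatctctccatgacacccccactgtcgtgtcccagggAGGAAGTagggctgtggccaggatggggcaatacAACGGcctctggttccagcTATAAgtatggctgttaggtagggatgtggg
Ctsg: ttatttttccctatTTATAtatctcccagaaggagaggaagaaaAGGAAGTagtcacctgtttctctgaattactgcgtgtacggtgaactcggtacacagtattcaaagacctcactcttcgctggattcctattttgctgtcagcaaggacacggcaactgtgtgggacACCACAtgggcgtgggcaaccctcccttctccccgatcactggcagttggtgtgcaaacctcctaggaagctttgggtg
AGGAAGT stood in all 4 windows, with its first base at -223 in Mpo, -94 in Prtn3, -84 in Elane and -206 in Ctsg, counted from the gene's start. Over all members it was found in 5 of 9 genes, the fifth being S100a8, and in none of the windows of Gzmb, Srgn, Ms4a3 and S100a9. Gzmb, Srgn and Ms4a3 were, like Mpo and Prtn3, highest in E11.5 S/G2/M, so the word was not common to the members highest there. It occurs in 7.69% of 32851 RefSeq promoter windows of this length. In Prtn3 and Elane it was followed on the same strand by AACGG (at -55 and -50) and TATAA (at -32 and -31). The 3 words in that order on the gene's strand were found in 4 of the 32851 windows, 0.0122%, and 2 of the 4 are Prtn3 and Elane. The order is the one seen in these 2 windows of neighbouring genes. Their place among the 4 was therefore given, and the share is no test. A match to a short word describes the letters and not a bound site.

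Ctsg, which encodes cathepsin G, was listed at 0 in all 4 groups, although it is the third serine protease of this kind. Its gene is at chr14:56099881-56102574 (mm10), in a cluster of related protease genes: of the 11 gene models that start within 100 kb of it, 10 were also listed at 0 in every group. Gzmb lies 156 kb further on at chr14:56258858-56262260. It encodes granzyme B, a serine protease best known from cytotoxic lymphocytes, and it was detected at E11.5 but listed at 0 in both E10.5 groups. Gzmb stood at 5.92 FPKM in E11.5 S/G2/M cells and 3.05 FPKM in E11.5 G1 cells, with a log2 fold change of 0.96 that did not pass (q = 0.846 in the authors' deposited table). Between ages Gzmb rose in S/G2/M (6.07 FPKM at E11.5, listed at 0 at E10.5, q = 0.00308 in the authors' deposited table). It rose in G1 as well (3.07 FPKM at E11.5, listed at 0 at E10.5, q = 0.00273 in the authors' deposited table).

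The other genes of cytotoxic lymphocytes stood beside Gzmb with little RNA. Of 18 listed genes, 11 were listed at 0 in both phases at E11.5, and Gzma, Prf1 (perforin), Ncr1, Cd3e and Il2rb, and the granzymes Gzmc to Gzmg, were listed at 0 in every group. The 18 genes summed to 8.43 FPKM in S/G2/M and 2.88 FPKM in G1 at E11.5, and to 1.69 and 1.17 FPKM at E10.5. Of 3 tested at E11.5 between phases, 1 rose, Cd7, a surface protein of T and natural killer cells and of early progenitors, with 2.59 FPKM in S/G2/M and a listed 0 in G1 (q = 0.0102 in the authors' deposited table). All 3 were higher in S/G2/M, as Gzmb was, and the 2 above 0 in both groups had a median log2 fold change of 1.64. Cd7 also rose between ages in S/G2/M (1 of 3 tested, all 3 higher at E11.5). In G1 between ages 1 gene of the list was tested, with a log2 fold change of 4.28, and at E10.5 between phases 1 different gene was tested. Neither was called, and both had p above 0.05.

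Srgn encodes serglycin, the proteoglycan core on which granule proteases are stored, and it rose with age in S/G2/M and passed in neither comparison of phases. Srgn stood at 67.2 FPKM in E11.5 S/G2/M cells, 53.8 FPKM in E11.5 G1 cells, 6.92 FPKM in E10.5 S/G2/M cells and 11.53 FPKM in E10.5 G1 cells. Both E11.5 groups were above both E10.5 groups, and at E10.5 the G1 group was the higher one. Between ages in S/G2/M, Srgn rose 10.2-fold (log2 fold change 3.35, q = 0.00772 in the authors' deposited table), rank 47 from the top of 8865. In G1 the log2 fold change was 2.30 and did not pass (p = 0.00325, q = 0.0637 in the authors' deposited table), although the authors' own mark of significance covers it. Its rank there was 316 of 9232. Between phases the log2 fold change was 0.32 at E11.5 (q = 0.896) and -0.74 at E10.5 (q = 0.968 in the authors' deposited table).

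**Figure D3:**
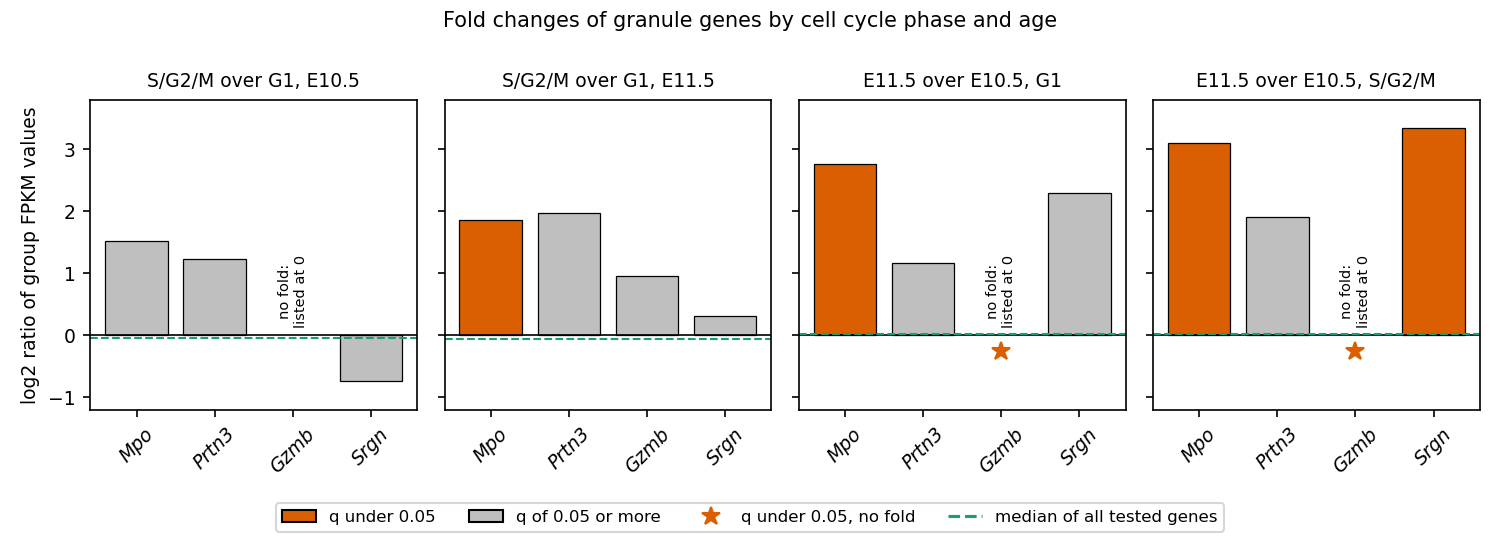
Log2 ratio of the group FPKM values (y axis) of Mpo, Prtn3, Gzmb and Srgn for S/G2/M over G1 at each age and E11.5 over E10.5 in each phase, coloured by the authors' q-value, with a star for q under 0.05 where a group is listed at 0 and a dashed line at the median of all tested genes. Mpo lies above 0 in all 4 comparisons (1.52, 1.86, 2.77 and 3.10), while Srgn lies above 2 between ages alone.

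Other proteoglycan genes did not move as a group with Srgn. All 19 genes for proteoglycan cores and chain synthesis were tested in each comparison. Between phases 0 passed, with 1 at p under 0.05 at E10.5 and 2 at E11.5. Between ages in G1, 2 rose, Ext2 (a heparan sulphate polymerase, 3.50-fold) and Hspg2 (perlecan, 2.22-fold), and 2 fell, Vcan (versican) and Sdc1 (syndecan 1). In S/G2/M 3 fell, Vcan, Sdc1 and Sdc2. Versican stood at 12.3 FPKM at E11.5 and 31.5 FPKM at E10.5 in S/G2/M. The median log2 fold change of the 19 genes was 0.18 between ages in S/G2/M, beside 0.03 over all tested genes.

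S100a8 and S100a9 encode the 2 subunits of calprotectin, the abundant cytosolic calcium-binding protein of neutrophils and monocytes, and both were detected in E11.5 G1 cells alone. S100a8 stood at 13.1 FPKM in E11.5 G1 and was listed at 0 in E11.5 S/G2/M, E10.5 S/G2/M and E10.5 G1. S100a9 stood at 4.12 FPKM in E11.5 G1 and was listed at 0 in the same 3 groups. S100a8 fell in S/G2/M against G1 at E11.5 (q = 0.0102) and rose at E11.5 over E10.5 in G1 (q = 0.00273 in the authors' deposited table). S100a9 did not pass in either (p = 0.0569, q = 0.631 between phases, and p = 0.0532, q = 0.332 between ages in the authors' deposited table).

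The 2 genes lie 22.6 kb apart on chromosome 3, S100a8 at chr3:90669071-90670034 and S100a9 at chr3:90692630-90695721 (mm10). Their upstream windows, printed because both genes encode calprotectin, are chr3:90668821-90669070 (plus strand) for S100a8 and chr3:90695722-90695971 (minus) for S100a9, with the same words in capitals.
S100a8: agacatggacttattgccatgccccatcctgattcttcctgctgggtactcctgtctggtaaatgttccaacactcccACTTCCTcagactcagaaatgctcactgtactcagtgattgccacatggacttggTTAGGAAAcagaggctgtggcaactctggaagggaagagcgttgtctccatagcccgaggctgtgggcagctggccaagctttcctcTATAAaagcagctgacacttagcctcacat
S100a9: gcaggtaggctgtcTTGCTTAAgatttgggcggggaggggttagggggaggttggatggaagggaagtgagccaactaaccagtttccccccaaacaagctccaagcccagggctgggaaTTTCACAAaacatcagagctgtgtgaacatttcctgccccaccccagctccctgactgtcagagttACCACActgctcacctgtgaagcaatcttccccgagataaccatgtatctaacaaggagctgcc
Both windows held the C/EBP word TTNNGNAA, at -117 in S100a8 and at -236 and -130 in S100a9, a word that 36.8% of the 32851 windows hold. The word was also found in Srgn and Ms4a3, which had other patterns of levels, and so in 4 of 9 members. S100a8 also held AGGAAGT on the other strand at -172, and TATAA at -30. In the 6 printed windows no marked words overlap.

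Other S100 genes, most of them in the same cluster, did not share that pattern. Of 13 listed, 7 or 8 were tested in each comparison and 0 were called, with 0 at p under 0.05 between phases at either age and 2 between ages in each phase. S100a11 stood at 340 FPKM in S/G2/M and 369 FPKM in G1 at E11.5, and S100a10, the annexin A2 partner, at 85.3 and 76.4 FPKM.

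Genes detected in 1 group alone were counted to place S100a8 and S100a9. Among 24131 gene models, 327 were above 0 in E11.5 G1 and listed at 0 in the other 3 groups, against 262 in E11.5 S/G2/M, 345 in E10.5 S/G2/M and 321 in E10.5 G1 alone. Of the 327, 11 were protein-coding with at least 1 FPKM, as were 11 in E11.5 S/G2/M, 8 in E10.5 S/G2/M and 12 in E10.5 G1. At 4 FPKM or more, a level chosen after the values were seen, E11.5 G1 had 4 protein-coding genes and each other group had 0. The 4 were Stfa2l1 (15.6 FPKM), S100a8 (13.1 FPKM), Pla2g12b (4.37 FPKM) and S100a9 (4.12 FPKM). Stfa3 (3.70 FPKM) and Camp (2.45 FPKM) were among the 11 as well. Stfa2l1 and Stfa3 are stefin A genes of neutrophils with near-identical copies, so their values are uncertain, and Camp encodes the cathelicidin of secondary granules. Ngp, another secondary granule gene, stood at 0.473 FPKM in E11.5 G1 and was listed at 0 elsewhere. Other genes listed for secondary and tertiary granules were not detected: Ltf (lactoferrin), Lcn2, Chil3, Cd177 and Retnlg were listed at 0 in every group.

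**Figure D4:**
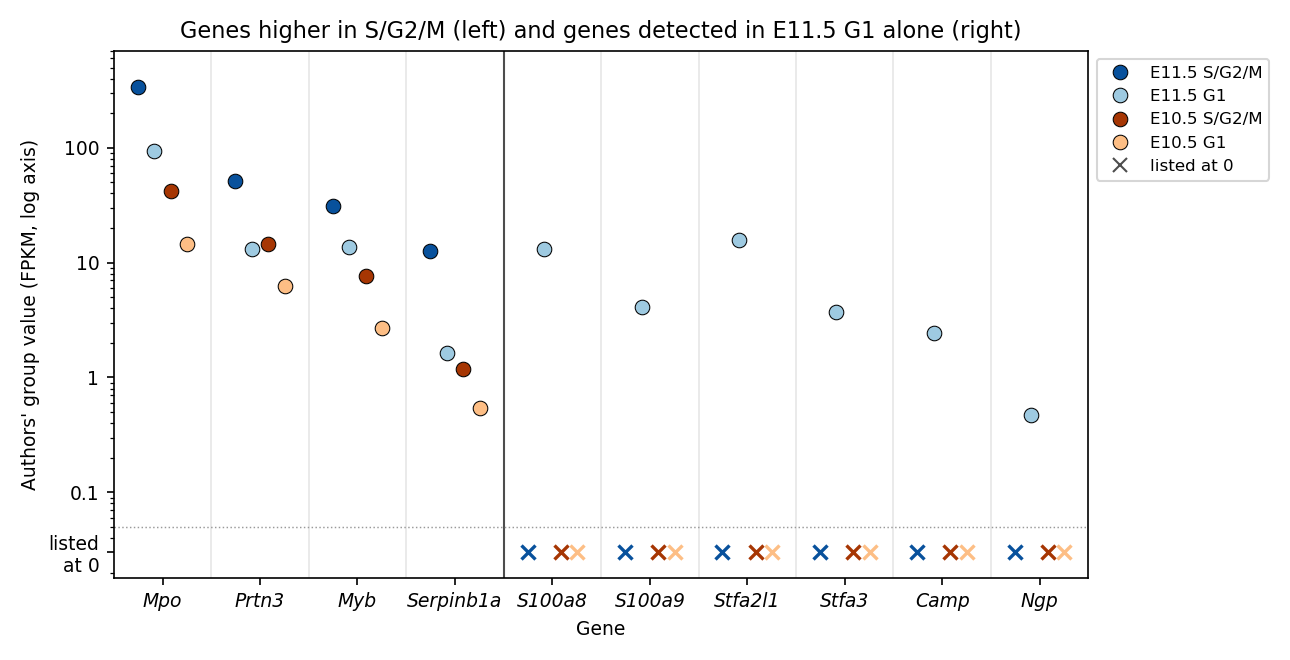
Group values (y axis, FPKM on a log scale, with crosses for values listed at 0) in E11.5 S/G2/M, E11.5 G1, E10.5 S/G2/M and E10.5 G1 cells, 1 value for each group with no error, for 4 genes higher in S/G2/M on the left and 6 genes detected in E11.5 G1 alone on the right, chosen after their values were seen. Mpo, Prtn3, Myb and Serpinb1a were highest in E11.5 S/G2/M, where the 6 genes on the right were listed at 0.

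Ms4a3 encodes a membrane protein of granulocyte and monocyte progenitors. It stood at 0.184 FPKM in E11.5 S/G2/M and 0.0940 FPKM in E10.5 S/G2/M, was listed at 0 in both G1 groups, and had too few reads for the authors' test. The Ms4a family also has members known from macrophages. Of 14 other Ms4a genes listed, 4 to 6 were tested. Ms4a6b and Ms4a6d rose in G1 between ages, 6.01-fold and 19.3-fold, and Ms4a6d fell in S/G2/M against G1 at E11.5 (6.13 and 45.7 FPKM, q = 0.0310 in the authors' deposited table). At E10.5 between phases 0 passed and 0 had p under 0.05, and in S/G2/M between ages 0 passed and 2 had p under 0.05.

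The genes whose 4 log2 fold changes lay nearest to those of Mpo, by Euclidean distance among 9610 genes, were Tnni2 (0.989), Myb (1.30), BC035044 (1.30), Rgcc (1.35) and Psd4 (1.36). The 4 fold changes come from 4 groups and share their values, and the likeness is a description. Only genes tested and above 0 in both groups of all 4 comparisons entered, so Prtn3 and Srgn were the only other members compared. Prtn3 was at rank 18 and Srgn at rank 109. Counted from Prtn3, Mpo was at rank 221, and counted from Srgn it was at rank 650. Of the 5 nearest genes, Tnni2, BC035044 and Rgcc passed in no comparison. Psd4 passed between ages in S/G2/M alone (q = 0.0201 in the authors' deposited table). Myb, a transcription factor of blood progenitors, stood at 31.0 FPKM in E11.5 S/G2/M, 13.8 FPKM in E11.5 G1, 7.71 FPKM in E10.5 S/G2/M and 2.70 FPKM in E10.5 G1. Myb rose 4.18-fold between ages in S/G2/M (q = 0.00308) and did not pass in G1 (q = 0.0678) or between phases (q = 0.369 at E11.5 and 0.441 at E10.5 in the authors' deposited table).

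Of 12 transcription factors known to act on granule genes, 10 or 11 were tested in each comparison. Between phases 0 passed at either age, with 1 at p under 0.05 at each. Between ages in G1, Spi1 (PU.1) rose 4.43-fold to 108 FPKM, against 24.4 FPKM at E10.5, and Runx1 rose 2.85-fold. In S/G2/M, Runx1 rose 4.05-fold and Myb rose, while Spi1 did not pass (82.2 and 29.3 FPKM, q = 0.0536 in the authors' deposited table). Cebpa was low, with 3.26 FPKM in S/G2/M and 6.197 FPKM in G1 at E11.5, and Cebpe, which acts in later granulocytes, did not exceed 0.678 FPKM. Gfi1 stood at 1.63 FPKM in S/G2/M and 0.2504 FPKM in G1 at E11.5.

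Of 14 partner genes of the primary granule, 12 were tested between ages in G1 and 3 rose, with a median log2 fold change of 1.76 beside 0.02 over all tested genes. They were Ctsc (cathepsin C, which activates the granule proteases, 6.00-fold), Lyz2 (lysozyme, 4.92-fold) and Gusb (beta-glucuronidase, 2.62-fold). In S/G2/M 4 of 11 rose, the same 3 and Serpinb1a (11.3-fold), an inhibitor of the granule proteases. Between phases 0 passed, with 0 at p under 0.05 at E10.5 and 3 at E11.5. At E11.5, Ctsc stood at 51.8 FPKM in S/G2/M and 135 FPKM in G1 (q = 0.130) and Lyz2 at 125 and 294 FPKM (q = 0.167 in the authors' deposited table), the opposite order to Mpo. Serpinb1a stood at 12.7 FPKM in S/G2/M and 1.63 FPKM in G1 (q = 0.320 in the authors' deposited table). Ctsc and Lyz2 are also expressed by macrophages. Lyz2 has a near-identical copy, Lyz1, so its value is uncertain.

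Of 16 genes of secondary and tertiary granules, 8 were listed at 0 in both phases at E10.5 and 6 at E11.5. Between ages in G1, 3 of 7 tested rose: Itgam (the CD11b integrin chain, 13.2-fold), Stfa1 (8.64-fold) and Stfa2l1 (listed at 0 at E10.5). Stfa2l1 fell in S/G2/M against G1 at E11.5 (1 of 7). At E10.5 between phases 0 of 4 passed with 1 at p under 0.05, and in S/G2/M between ages 0 of 4 passed with 0 at p under 0.05.

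Many receptor and phagocyte oxidase genes rose between ages. Of 16 receptors for myeloid growth factors and chemoattractants, 9 of 13 tested rose in G1, with a median log2 fold change of 3.19. In S/G2/M 5 of 13 rose, with a median of 2.06. Over all tested genes 3% rose in G1 and 2.14% in S/G2/M, with medians of 0.02 and 0.03. The lists were chosen with earlier results known, so their counts do not measure enrichment. In G1, Csf3r, the G-CSF receptor, stood at 16.8 FPKM at E11.5 and 1.49 FPKM at E10.5 (11.3-fold). Csf2ra, the alpha chain of the GM-CSF receptor, rose 22.2-fold in G1 and 4.72-fold in S/G2/M, and Cd33 rose 6.58-fold and 7.38-fold. Flt3 rose in S/G2/M (6.12 and 0.557 FPKM, 10.98-fold). Between phases Csf1r, the M-CSF receptor of macrophages, fell at E11.5 (1 of 13), and 0 of 9 passed at E10.5, with 1 at p under 0.05. Of the 6 oxidase subunits, 5 rose in G1 and 2 in S/G2/M. Cybb, the catalytic subunit, stood at 22.8 FPKM at E11.5 and 3.70 FPKM at E10.5 in G1, and Ncf1 rose 4.997-fold in G1 and 3.70-fold in S/G2/M. Between phases 0 passed, with 0 at p under 0.05 at E10.5 and 3 at E11.5.

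Macrophage and monocyte markers moved beside these lists. Their 19 genes summed to 735 FPKM in S/G2/M and 2541 FPKM in G1 at E11.5, and to 201 and 357 FPKM at E10.5. Of 18 tested between phases at E11.5, 8 fell, among them C1qa (6.06-fold), Cd68 (4.67-fold), Adgre1 (F4/80, 4.07-fold) and Lyve1 (10.1-fold), and all 18 were lower in S/G2/M. Mpo was higher in S/G2/M, where these markers were lower. At E10.5, 0 of 19 passed, with 4 at p under 0.05. Between ages the sum was 2572 FPKM at E11.5 and 342 FPKM at E10.5 in G1, where 14 of 19 rose, and 767 and 198 FPKM in S/G2/M, where 8 of 18 rose. The markers were thus higher at E11.5, as were Mpo, Srgn, the receptors and the oxidase, and S100a8 and S100a9 were detected in the group with the largest sum. Their part in these results was not tested.

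Markers of mast cells, basophils and eosinophils, which also hold serglycin granules, were mostly listed at 0. Of 19 listed, 15 were at 0 in both phases at E10.5 and 12 at E11.5, including Mcpt8, Prss34, Fcer1a and Prg2. They summed to 13.3 FPKM in S/G2/M and 36.0 FPKM in G1 at E11.5, and to 0.683 and 0.677 FPKM at E10.5. Cpa3, the mast cell carboxypeptidase that progenitors also carry, made up most of this, with 9.34 FPKM in S/G2/M and 20.3 FPKM in G1 at E11.5. Of 2 or 3 tested, 0 passed in any comparison, with 1 at p under 0.05 between phases at E11.5. The 2 tested there were both lower in S/G2/M, with a median log2 fold change of -1.82. Between ages all tested genes were higher at E11.5. Over the 2 above 0 in both groups, the median was 7.58 in G1 and 4.06 in S/G2/M, from low values at E10.5. None of the 19 was tested between phases at E10.5.

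Genes listed for the cluster cells also moved with age. Of 14 listed, 3 of 13 tested rose in G1 (Pecam1, Runx1 and Ptprc) and 5 of 14 in S/G2/M (Kit, Pecam1, Runx1, Cd34 and Adgrg1). The shares over all tested genes were 3% in G1 and 2.14% in S/G2/M. Ptprc, the pan-leukocyte protein CD45, stood at 30.4 FPKM at E11.5 and 4.57 FPKM at E10.5 in G1. Macrophage and monocyte markers rose in the same comparison, and their part in the rise of Ptprc was not tested. Adgrg1 (GPR56), a receptor of emerging stem cells, rose in S/G2/M against G1 at E11.5 (79.4 and 23.7 FPKM, q = 0.0102 in the authors' deposited table), the same direction as Mpo. At E10.5 between phases 0 of 14 passed, with 2 at p under 0.05.

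**Figure D5:**
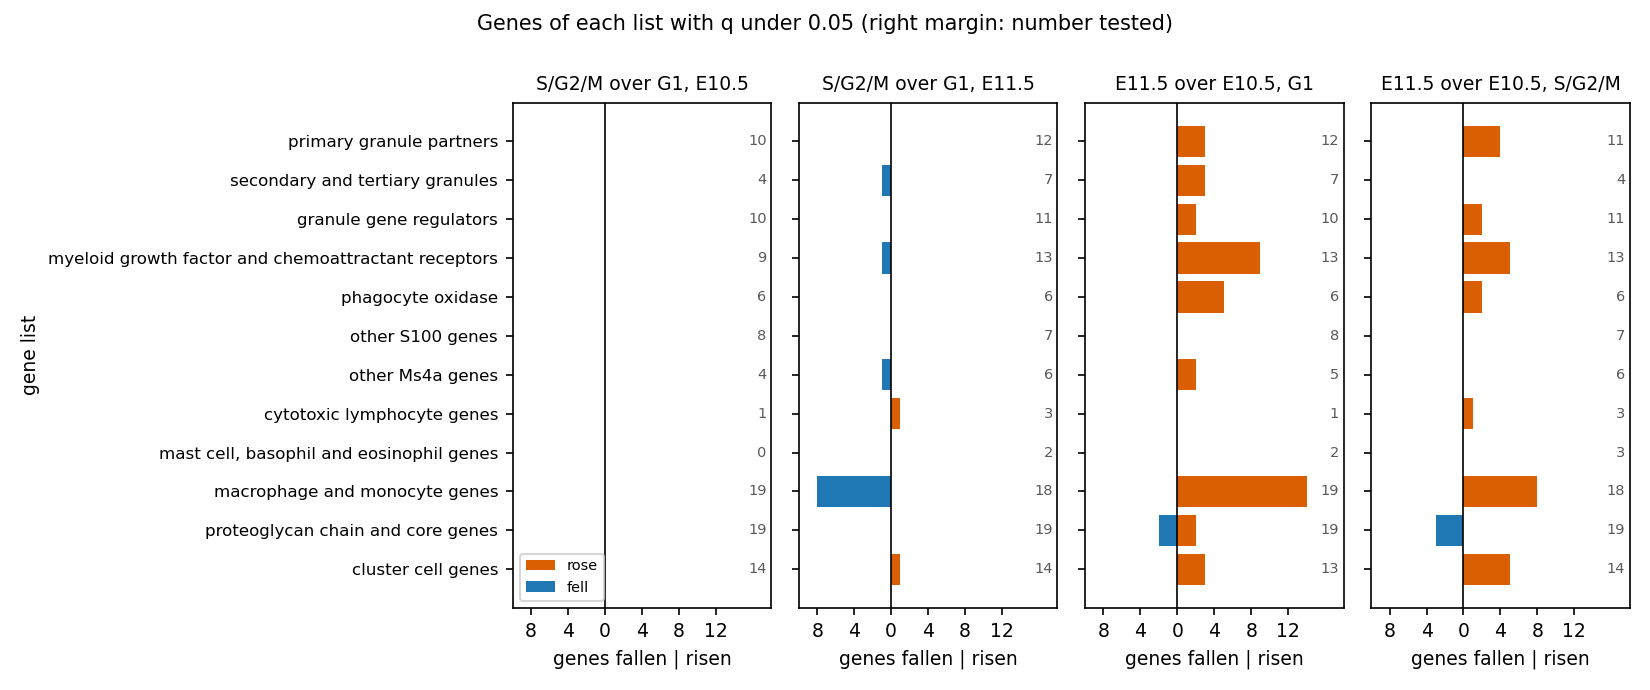
Number of genes that rose (right of 0) or fell (left of 0) at q under 0.05 in the authors' deposited table, for each gene list (y axis) and each of the 4 comparisons, with the number tested at the right margin. Between ages in G1, 14 of 19 macrophage and monocyte genes and 9 of 13 receptors rose, and at E10.5 no listed gene passed between phases.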

How the data were processed

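Per the labels' protocols, sorted cells gave RNA that was sequenced on a HiSeq2500. The tools CASAVA 1.4, TopHat and Cuffdiff and the build mm10 appear in the submitters' processing notes without a role, whereas the labels' protocols name bowtie 0.12.2 and mm8. Coordinates follow mm10 and count from 1. Per the file headers, each deposited table gives 1 FPKM value for each of 2 groups, with the authors' p-value, q-value and test statistic, a score. The tables write G2 for S/G2/M. The deposited log2 fold change is the ratio of the 2 FPKM values. The authors' tests were used as deposited, and it is not stated if single samples entered them. Where nothing says that samples came from separate litters, p-values may measure technical spread. Low FPKM values showed no whole-read steps (at most 0.668% of low genes shared 1 ratio), so depth and counting error are unknown. The smallest deposited p-value was 5e-05.

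The 4 comparisons were S/G2/M over G1 at each age and E11.5 over E10.5 in each phase. The count tests foreseen for values of single samples were replaced by the authors' calls. All members were named. Of each list, up to 6 called genes per comparison were eligible by fold size, or the 2 with the highest FPKM where none passed, and not all are printed. Genes near Mpo were the 5 nearest by fold changes, with at least 5 FPKM in the highest group. Other genes named, such as Elane's neighbours, Stfa3 and Gfi1, were chosen after their values were seen. The members and the 12 lists (180 entries, 1 not found) were chosen with earlier results of these data known. The lists overlap: Csf1r is in the receptor and macrophage lists, and Runx1 in the regulator and cluster cell lists. Alternatives were q thresholds, FPKM minimums, the authors' own mark, a log2 fold change of at least 1, a pseudocount of 1, median centring, summed rows and the tables in the other order. The adjustment behind the recomputed q-values and the search for genes near Mpo were tested on simulated data. The fold and count calculations were not. The tools were matplotlib 3.10.9, pandas 2.3.3, numpy 2.4.6 and Python 3.11.15.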

Additional observations from a re-analysis of the deposited data

How the results depend on the processing

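No paired analysis was possible because the tables hold 1 value for each group and no single samples. For the same reason leaving out each replicate was not run. The number of members called kept within 1.5 times of the reported one under 21 alternatives and moved under 1. Between phases at E11.5 it was 0 in place of 2 at a q threshold of 0.01, since the smallest deposited p-value has a q-value of 0.0102 there. Among those that kept within 1.5 times, the number between ages in G1 was 2 in place of 3 over genes of at least 5 FPKM, since Gzmb lies under that level. With the authors' own mark it was 4 there. All 49 recomputed log2 fold changes of single members kept their sign, but most of them could not have changed it. A pseudocount (14 values) cannot reverse a sign, and summing rows (14 values) left each value as it was. A change of sign was possible only with median centring (14 values) and with the tables in the other order (7 values), which hold the same groups. Mpo between phases at E10.5 had q between 0.0874 and 0.0950 over the alternatives, and Srgn between ages in G1 between 0.0515 and 0.0637 in values recomputed from the authors' deposited table. Counts over the 12 lists moved in 21 cases and not in the other 243, with 13 of the 21 at a q threshold of 0.01. There, between phases at E11.5, the macrophage, receptor, secondary granule, Ms4a, cytotoxic and cluster cell counts were all 0, while 9 macrophage genes were called between ages in G1, with 2 oxidase genes, 1 regulator and 1 proteoglycan gene. In S/G2/M between ages, 1 primary granule partner, 1 receptor and 3 cluster cell genes were called at that threshold. With the authors' own mark, 8 receptors, 2 Ms4a genes and 1 other S100 gene were called in S/G2/M between ages, and 1 mast cell, basophil or eosinophil gene between phases at E11.5. Over genes of at least 5 FPKM, 2 Ms4a genes and 1 S100 gene passed in S/G2/M between ages, and no cytotoxic gene passed there or between phases at E11.5, since Cd7 lies under that level. Over all genes, a threshold of 0.01 left 0 called between phases at either age, 301 between ages in G1 and 263 in S/G2/M, against 85, 87, 577 and 520 at 0.05, and 48 and 55 were called between phases at E10.5 and E11.5 among genes of at least 5 FPKM. The spread between the samples of a group cannot be judged, and low genes such as Elane and Ms4a3 are limited by an unknown depth.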

Other observations

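Further loci besides that of Prtn3 and Elane join many genes in the tables. In all, 11 loci held at least 10 gene models, the largest with 51. On those other than the locus of Prtn3, 44 genes were tested between phases at each age and 0 were called, with 3 at p under 0.05 at E10.5 and 0 at E11.5. Between ages, 44 were tested in G1 with 0 called and 1 at p under 0.05, and 43 in S/G2/M with 1 called and 2 at p under 0.05. These counts were taken after the values of Prtn3 were seen. Prss57, another serine protease gene of the primary granule, lies on the same locus as Prtn3 and stood at 0.667 FPKM in S/G2/M and 0.282 FPKM in G1 at E11.5, too low for the authors' test.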
